A study of Macaca mulatta with 56 samples.

Results

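Voltage-gated sodium and calcium channel genes were taken as all rows of the expression table whose Ensembl macaque symbol begins with SCN and a digit, or with CACNA, CACNB or CACNG. There were 34 such genes among 17807 identifiers, 10 of sodium and 24 of calcium channels, and all 34 were read in the amygdala columns. Outside the amygdala a gene was read only where its mean log2(value + 1) over hippocampus, occipital cortex and prefrontal cortex lay within 2 of its mean in amygdala, which held for 28. The amygdala columns and the other columns do not hold the same transcript under every identifier. This limit removes rows of unlike level but cannot show that a kept row holds the same transcript. A name outside the amygdala remains less certain than in it. CACNA2D1 and CACNB1 were at 0 in all other regions, and CACNG2 lay 6.63 below its amygdala mean there. The gene just inside the limit was SCN9A, at -1.67, and those outside included CACNA1H at 2.02 and CACNG5 at 2.56. No row of the expression table carried the symbol SCN4A, SCN10A, SCN11A, CACNA1S or CACNG1, so these genes were not analysed here.

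Messenger RNA was sequenced from 4 brain regions of 14 female rhesus macaques aged 19.4 to 23.2 years. In 7 animals (HT) implanted capsules released estradiol, to a mean of 82.1 pg/mL in serum. The other 7 (OvH) had empty capsules and 6.6 pg/mL. The ovaries and uterus of all 14 had been removed, and all ate a Western-style diet, in which fat gave 36% and sugar 18.5% of the calories, begun about 6 weeks before surgery. The series text gives the length of treatment as 30 months in one place and 32 in another.

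Voltage-gated sodium channels open when the membrane depolarizes and carry the upstroke of the action potential. Each is a large pore-forming alpha subunit, made by a gene such as SCN1A, joined by beta subunits such as that of SCN4B, which set its gating and its place in the membrane. Voltage-gated calcium channels turn the same depolarization into calcium entry, which triggers transmitter release at terminals and drives signalling to the nucleus in the cell body. Their pore is an alpha1 subunit (CACNA1 genes), carried to the membrane by an intracellular beta subunit (CACNB genes) and an extracellular alpha2delta subunit (CACNA2D genes). Most of the CACNG genes of brain encode TARPs, which are better known as auxiliary subunits of AMPA-type glutamate receptors.

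Values are upper-quartile normalized read signal made by the authors, from 34.6 to 93.3 M (mega) reads per library, and a triplet of values is the lowest, the median and the highest of the 7 animals of a group. All 34 genes passed the filter on low values, a mean of at least 10, in amygdala, and all 28 elsewhere. Values are not per length, so levels are compared between samples and not between genes. Differences are on the log2(value + 1) scale, with the SE and the adjusted p of limma, and a gene passed at an adjusted p under 0.05. The normalized values of an amygdala library summed to 71.1 ± 4.46 M in HT animals, against 61.4 ± 4.08 M in OvH animals (SD, n = 7 each), and to 58.5 to 62.0 M on average in the groups of the other regions. The amygdala library of OvH animal 32 stood apart: it was the lowest of 14 for 20.2% of all genes tested and for 12 of the 34 channel genes. Of the 14 hippocampus libraries, 12 resembled the other hippocampus libraries most. The 2 from OvH animals 30 and 43 were closer to the prefrontal profile, with correlations across genes of 0.964 and 0.967 against 0.931 and 0.932 with hippocampus. In bulk tissue, fewer cells of a type and less RNA per cell cannot be told apart.

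In amygdala, limma with all 14 animals called SCN4B higher and CACNB1 lower in estradiol-treated animals. SCN4B encodes a beta subunit linked to resurgent sodium current in fast-firing neurons, and CACNB1 a cytoplasmic calcium channel subunit. These were the 2 of 34 genes (5.88%) past the threshold, 1 higher and 1 lower. That share was near that of all 16129 genes, of which 6.89% passed (6.16% higher, 0.732% lower). Neither call held in every fit run, as given below for each gene. The 34 leaned low: 26 had a negative difference, with a median of -0.26 against 0.01 over all genes. The share of all genes with a negative difference is not given here. Besides SCN4B and CACNB1, SCN2B, CACNA2D1 and CACNG6 had an unadjusted p under 0.05, which makes 5 of 34 (14.7%), below the 21.5% of all genes. OvH animal 32 held the highest CACNG6 value, and without it the unadjusted p of CACNG6 by limma was 0.101. By edgeR 2 of 34 passed, CACNB1 and CACNA2D1, where 6.31% of all genes did, and SCN4B did not (adjusted p = 0.0873). By DESeq2 4 of 34 passed, where 10.9% of all genes did. The lean was widest among the sodium channel alpha subunits and CACNA2D1, and there the calls changed with the OvH library of animal 32. Without it 8 genes passed, with SCN4B again higher and with CACNB1, SCN1A, SCN2A, SCN3A, SCN8A, CACNB4 and CACNA2D1 lower. That library was singled out after its values were seen. Of all genes, 14.6% passed without this animal (10.1% higher, 4.54% lower). Leaving out any other single animal left 0 or 1 past the threshold, with 3.4% to 9.77% of all genes.

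**Figure D1:**
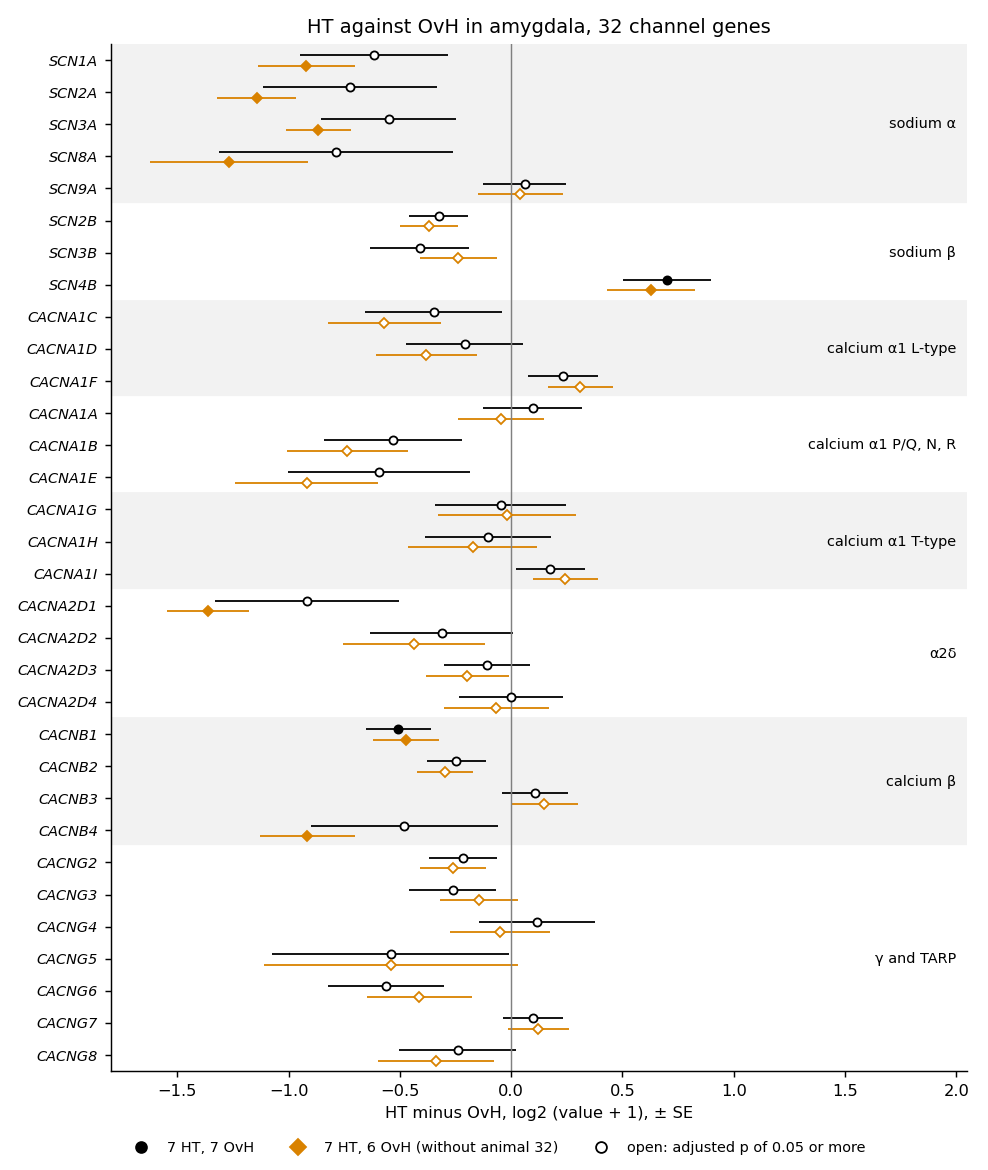
Difference HT minus OvH on the log2(value + 1) scale with its SE for 32 of the 34 channel genes in amygdala, grouped by role. Black circles use all 14 animals and orange diamonds leave out OvH animal 32; filled symbols passed at an adjusted p under 0.05, which were 2 with all animals and 8 without animal 32.

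Of the 6 sodium channel alpha genes, 5 had negative differences in amygdala and none passed by limma with all 14 animals. By DESeq2 SCN2A passed with all 14 animals (log2 difference -0.95, adjusted p = 0.0363). SCN1A (ENSMMUG00000008407), whose channel is prominent in inhibitory interneurons, had 604, 1236 and 1628 in HT animals, against 472, 2059 and 2752 in OvH animals (log2 difference -0.62, SE 0.33, adjusted p = 0.301). SCN2A (ENSMMUG00000002712), found in axons and initial segments of excitatory neurons, had 3070.1, 5733 and 7359 in HT animals, against 1493, 11697 and 13638 in OvH animals (log2 difference -0.72, SE 0.39, adjusted p = 0.304). In each of these genes every HT animal lay below the OvH median, yet the lowest OvH value, from animal 32, was below every HT value. SCN3A (ENSMMUG00000018840), best known from the developing brain, had 932, 1256 and 1617 in HT animals, against 483, 2132 and 2843 in OvH animals (log2 difference -0.55, SE 0.30, adjusted p = 0.313). SCN8A (ENSMMUG00000000415), the channel of mature initial segments and nodes of Ranvier, had 321, 1399 and 2216 in HT animals, against 266, 2429 and 3941 in OvH animals (log2 difference -0.79, SE 0.53, adjusted p = 0.422). The same library again held the lowest value of both.

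Set beside the 6 other OvH animals, the HT animals were lower in all 4 genes. Animal 32 was set apart because of its values, the lowest of all amygdala libraries in each of these genes. The p-values without it carry that choice. SCN2A lay between 3070.1 and 7359 in HT, against 9766 to 13638 in those 6 (log2 difference -1.14, SE 0.18, adjusted p = 0.00295). SCN3A lay between 932 and 1617 in HT, against 1862 to 2843 (log2 difference -0.87, SE 0.15, adjusted p = 0.00319). In both, no HT animal reached the lowest of these 6. SCN1A (log2 difference -0.92, SE 0.22, adjusted p = 0.0107) and SCN8A (log2 difference -1.27, SE 0.36, adjusted p = 0.0259) also fell, with groups that overlapped: the 6 OvH animals spanned 1564 to 2752 for SCN1A and 1799 to 3941 for SCN8A. All HT values lay below these 6 in 3 channel genes, SCN2A, SCN3A and CACNA2D1, and in 1.35% of all genes.

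**Figure D2:**
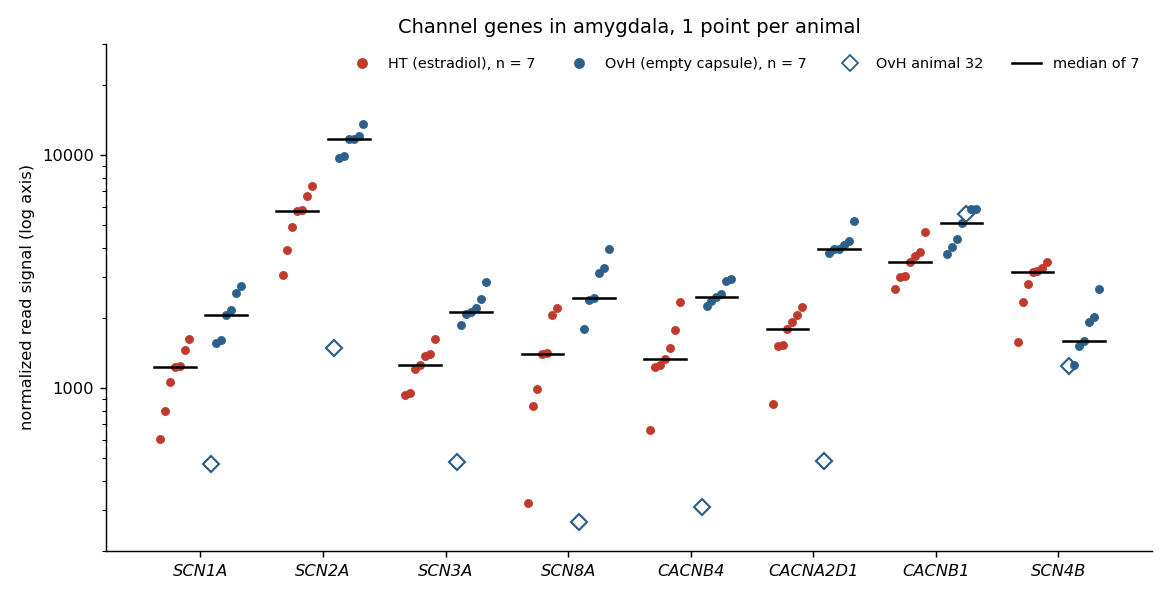
Normalized read signal in amygdala on a log axis for 8 channel genes, with 7 HT animals in red left of 7 OvH animals in blue and the median of each group as a bar. The open diamond is OvH animal 32, which is the lowest of the 14 points for every gene shown except CACNB1.

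SCN9A, a channel of pain-sensing neurons, differed by 0.06 (adjusted p = 0.891) with the 14 animals and by -0.15 with libraries scaled to equal totals. How reads shared by neighbouring alpha genes of similar sequence were assigned is not given in the sources used here.

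Among the beta subunits, SCN4B (ENSMMUG00000063655) rose in HT amygdala, to 1573, 3156 and 3462 in HT animals, against 1248, 1590.3 and 2663 in OvH animals. The groups overlapped, with 5 HT animals higher than the highest OvH animal and 6 higher than the OvH median (log2 difference 0.70, SE 0.20, adjusted p = 0.0422). The call stayed without animal 32 (adjusted p = 0.0423) and ended in other fits, with an adjusted p of 0.134 with libraries scaled to equal totals, 0.0873 by edgeR, 0.0540 with the animal as a replicate block over all regions, and between 0.0545 and 0.0975 without any 1 of animals 30, 31, 34, 35, 36, 38, 39, 40, 41, 42 and 43. It was 0.0224 by DESeq2. The difference was positive in all 26 fits run, between 0.49 and 1.13.

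SCN2B, a beta subunit joined to the alpha subunit by a disulfide bond, had 8619.6, 10889 and 15241 in HT animals, against 11456, 13925 and 16064 in OvH animals (log2 difference -0.32, SE 0.13, adjusted p = 0.163), with 4 of 7 HT animals below every OvH animal. Of the alternatives run it passed with equal totals, at a difference of -0.54 and an adjusted p of 0.0300. SCN3B had 2389, 3174 and 4515 in HT animals, against 2931, 4127 and 9338 in OvH animals (log2 difference -0.41, SE 0.22, adjusted p = 0.303), and its highest value was that of animal 32.

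The pore genes of calcium channels did not pass in amygdala, with or without animal 32. Among the presynaptic P/Q-, N- and R-type pores, CACNA1A, the P/Q-type pore of fast transmitter release, had 1011, 1765 and 2539 in HT animals, against 865, 1752 and 2051 in OvH animals (log2 difference 0.10, SE 0.22, adjusted p = 0.853). CACNA1B, the N-type pore, had 517, 1222 and 2212 in HT animals, against 706, 1729 and 2621 in OvH animals (log2 difference -0.53, SE 0.31, adjusted p = 0.343). CACNA1E, the R-type pore, had 529, 1341 and 2885 in HT animals, against 512, 2480.4 and 3171 in OvH animals (log2 difference -0.60, SE 0.41, adjusted p = 0.437). The groups overlapped in all 3, with 5 of 7 HT animals below the OvH median for CACNA1B and 6 of 7 for CACNA1E.

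Of the L-type pores, which couple depolarization to gene expression, CACNA1C had 302, 599 and 1048 in HT animals, against 282, 786 and 1205 in OvH animals (log2 difference -0.35, SE 0.31, adjusted p = 0.564). CACNA1D, which opens at lower voltages than CACNA1C, differed by -0.21, and CACNA1F, known from photoreceptors, by 0.23, with 7 of 7 HT animals above the OvH median for CACNA1F. Of the T-type pores, which open near rest and support burst firing, CACNA1G had 404, 927 and 1943 in HT animals, against 657, 1082 and 1651 in OvH animals (log2 difference -0.05, SE 0.29, adjusted p = 0.946). The HT range enclosed the OvH range. CACNA1H had 949.5, 2526 and 4156 in HT animals, against 1737, 2283 and 3066 in OvH animals (log2 difference -0.10, SE 0.28, adjusted p = 0.877). CACNA1I had 1382, 1545 and 2407 in HT animals, against 1027, 1407 and 1906 in OvH animals (log2 difference 0.18, SE 0.15, adjusted p = 0.554), and 6 of 7 HT animals were above the OvH median.

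Of the subunits that carry the pore to the membrane, CACNB1 (ENSMMUG00000000289) fell in HT amygdala to 2669.9, 3484 and 4656 in HT animals, against 3745, 5128 and 5863 in OvH animals. Every HT animal lay below the OvH median and 5 of 7 below every OvH animal (log2 difference -0.51, SE 0.15, adjusted p = 0.0444). Animal 32 was not extreme here, at 5603, and the difference was negative in all 26 fits run, from -0.72 to -0.20. The call ended without any 1 of animals 33, 34, 35, 36, 37, 38, 40, 42 and 43, at adjusted p from 0.0644 to 0.112. With the animal as a replicate block in 1 fit of all regions it was 3.76e-04, but that fit takes part of the spread of CACNB1 from regions where it was at 0.

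CACNB4, a beta subunit whose loss causes epilepsy and ataxia in mice, had 661, 1328 and 2330.4 in HT animals, against 309, 2455 and 2943 in OvH animals (log2 difference -0.48, SE 0.42, adjusted p = 0.555). Animal 32, at 309, lay far below the other 6 OvH animals, which spanned 2252 to 2943 (log2 difference -0.92, SE 0.21, adjusted p = 0.01 without it). It was set apart after its values were seen. CACNB2 (-0.25) and CACNB3 (0.11) did not pass.

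CACNA2D1 (ENSMMUG00000030244), the main gabapentin receptor, showed the widest gap once animal 32 was set apart. It had 852, 1788 and 2219 in HT animals, against 485, 3973 and 5226 in OvH animals (log2 difference -0.92, SE 0.41, adjusted p = 0.21). The 6 OvH animals other than 32 lay between 3812 and 5226, above every HT animal, and without animal 32 the gene fell (log2 difference -1.36, SE 0.18, adjusted p = 0.00295). Here too animal 32 was set apart after its values were seen. With all 14 animals CACNA2D1 also passed by edgeR (adjusted p = 0.0423), by DESeq2 (0.00957) and with the replicate block (0.0151), where its spread too came partly from regions at 0. CACNA2D3 had 1729, 2650.3 and 4571 in HT animals, against 1975, 2831 and 4138 in OvH animals (log2 difference -0.11, SE 0.19, adjusted p = 0.804). CACNA2D2 (-0.31) and CACNA2D4 (-4.87e-04) did not pass, and all 4 alpha2delta genes overlapped between the groups of 7.

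None of the 7 CACNG genes passed in amygdala. CACNG2, which encodes stargazin, had 339, 481 and 526 in HT animals, against 427, 504 and 614 in OvH animals (log2 difference -0.22, SE 0.15, adjusted p = 0.457). CACNG3, a TARP of forebrain neurons, had 5697, 7577 and 10544 in HT animals, against 6259.6, 10032 and 15308 in OvH animals (log2 difference -0.26, SE 0.19, adjusted p = 0.477). CACNG8, a TARP abundant in hippocampus, had 144, 215 and 453 in HT animals, against 177, 247 and 388 in OvH animals (log2 difference -0.24, SE 0.26, adjusted p = 0.648). The groups overlapped in each. CACNG6, which belongs with the gamma subunits of muscle rather than with the TARPs, differed by -0.56 (adjusted p = 0.219), CACNG4 by 0.12 and CACNG7 by 0.10. The highest OvH values of CACNG3 and CACNG6 were those of animal 32. Without it their differences were -0.15 and -0.41. CACNG5 was scarce, with medians of 7.61 in HT and 12.1 in OvH animals.

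Other transcripts moved with the amygdala groups. The 69 cytosolic ribosomal protein genes summed to between 3227157 and 10659197 in HT and between 2110074 and 3939791 in OvH animals (mean log2 difference 1.11), a list chosen after the data were seen. Their mean log2 level in animal 32 was 15.23, above the 14.10 to 14.90 of the other OvH animals and within the 14.65 to 16.24 of HT animals. Of 15 myelin and oligodendrocyte markers, 13 were measured and none was at 0, with sums between 784819.7 and 1590487 in HT and between 371966 and 1273723 in OvH (mean log2 difference 0.51). All 16 pan-neuronal markers were measured and none was at 0, with sums between 625778 and 872553 in HT and between 653302 and 985436 in OvH (mean log2 difference -0.27). The mean log2 differences of the other lists were -0.37 for endothelial, -0.28 for oligodendrocyte precursor, -0.10 for astrocyte, 0.21 for microglia, 0.13 for parvalbumin interneuron, -0.13 for excitatory neuron, 0.01 for choroid plexus, 0.02 for striated muscle and 0.05 for striatal neuron markers, the last a list chosen after the data were seen.

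With the mean of the ribosomal protein, myelin or neuronal list as a covariate, 0 of 34 channel genes passed by limma, and 2, 5 and 1 had an unadjusted p under 0.05. Over all genes 0%, 2.54% and 0% passed in these fits, with 2.84%, 17.1% and 9.6% at an unadjusted p under 0.05. The part of these transcripts in the result was not tested. With libraries scaled to equal totals, which moved the median of all genes to -0.20, 2 channel genes passed and both were lower, CACNB1 and SCN2B, where 10.1% of all genes passed. Over all genes 617 were then higher and 1013 lower, against 994 and 118. By edgeR, where the median of all genes was -0.10, the 2 that passed were also both lower, CACNB1 and CACNA2D1, with 675 higher and 343 lower over all genes. Of 34 differences, 7 took the other sign under one of these scalings or by DESeq2, namely CACNA1A, CACNA1H, CACNA1I, CACNB3, CACNG4, CACNG7 and SCN9A, none of which passed.

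Genes that work beside these channels were taken from 7 lists of 42 symbols, which include older and newer symbols of the same gene. Of these symbols, 39 were tested in amygdala. The lists hold FGF homologous factors, which bind the sodium channel tail, scaffolds of the axon initial segment and node, RGK inhibitors of calcium channels, presynaptic partners, calcium sensors, the sodium leak channel complex and sodium channel regulators. By limma none passed, where 6.89% of all genes did, and 6 of 39 had an unadjusted p under 0.05, where 21.5% of all genes did. edgeR passed 1 of 39, CNTNAP2, where 6.31% of all genes passed. DESeq2 passed 3 of 39, CNTNAP2, CALM2 and NALCN, where 10.9% of all genes did. Of the 39, 29 had negative differences, with a median of -0.13. The smallest adjusted p was that of CNTNAP2, which clusters potassium channels beside the node (-0.62, adjusted p = 0.0626). Of the 9 initial segment and node genes, 8 had negative differences. These counts of signs stand without the share of negative differences over all genes, which is not given here.

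Outside the amygdala no channel gene differed between HT and OvH animals by limma. In each of hippocampus, occipital cortex and prefrontal cortex 0 of 28 passed, and 0 had an unadjusted p under 0.05. The background was 0% as well, of 16317, 16138 and 16286 genes, with 335, 303 and 603 of them at an unadjusted p under 0.05. edgeR and DESeq2 also passed 0 of 28 in each region, with 0 of all genes by edgeR and 12, 0 and 6 by DESeq2. Without the hippocampus libraries of animals 30 and 43, 0 of 28 passed in hippocampus and 4 had an unadjusted p under 0.05, where 5.23% of all genes did. These were CACNB4, at 1.30 in place of 0.27, SCN4B at 0.74, SCN2A at 0.53 and CACNG6 at -0.61, named after their values were seen. Without these libraries 9 of the 28 hippocampal differences took the other sign, among them SCN1A at 0.61 in place of -0.11, SCN3B at -0.26 in place of 0.20 and CACNA2D2 at 0.34 in place of -0.12. Median differences of the 28 were 0.04, -0.05 and -0.02, in that order, against 0.02, 0.0019 and 8.42e-04 over all genes.

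**Figure D3:**
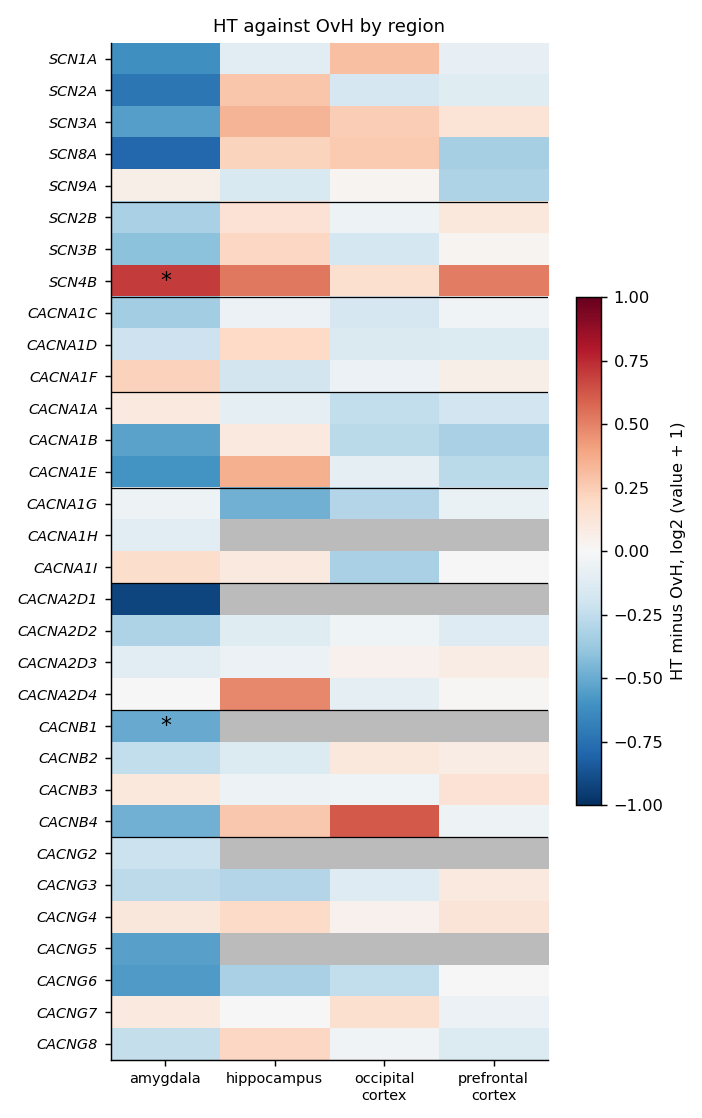
Difference HT minus OvH on the log2(value + 1) scale for 32 channel genes (rows, grouped by role) in each region (columns), with red for higher and blue for lower in HT; grey marks genes not read outside the amygdala. The 2 asterisks are the calls with all animals, SCN4B and CACNB1 in amygdala.

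SCN4B had the smallest p of the 28 in hippocampus and prefrontal cortex and in the average over the 3 regions. It had 1989, 3766 and 5513 in HT animals, against 1482, 2891 and 4485 in OvH animals in hippocampus (log2 difference 0.52, SE 0.28, adjusted p = 1). Prefrontal SCN4B stood at 1902, 4084 and 5728 in HT animals, against 1419, 2366 and 4087 in OvH animals (log2 difference 0.51, SE 0.27, adjusted p = 1). In occipital cortex it had 3084, 5599 and 8634 in HT animals, against 3880.3, 5192 and 6678 in OvH animals (log2 difference 0.16, SE 0.21, adjusted p = 0.999). HT medians were above OvH medians in all 4 regions, and the groups overlapped in each. The average over the 3 regions differed by 0.40 (SE 0.20, adjusted p = 1; 0% of 16354 genes passed and 517 had an unadjusted p under 0.05). The difference in amygdala was larger by 0.30 (SE 0.13, adjusted p = 0.169), so a difference between amygdala and the other regions did not pass.

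**Figure D4:**
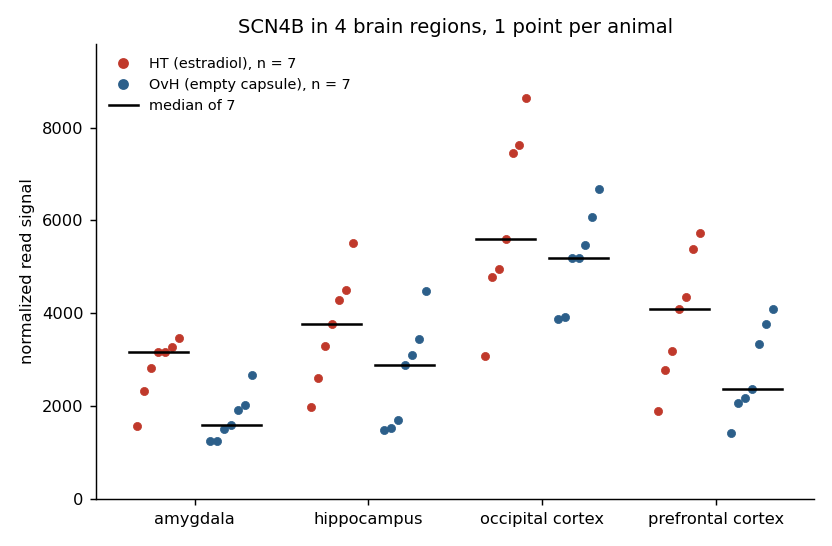
Normalized read signal of SCN4B in each animal, with 7 HT animals in red left of 7 OvH animals in blue in every region and the median as a bar. The HT median is the higher one in all 4 regions, with 3156 against 1590 in amygdala, and all pairs of groups overlap.

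The alpha subunits overlapped between the groups in every region outside the amygdala. SCN1A had 866, 1948 and 2528 in HT animals, against 515, 1575 and 11044 in OvH animals in hippocampus (-0.11), where the top value is the library of animal 30. In occipital cortex SCN1A had 3041, 5819 and 10163 in HT animals, against 2846, 4051 and 8764 in OvH animals (0.30). The prefrontal values of SCN1A were 1424, 4744 and 4969 in HT animals, against 1056, 3718 and 6156 in OvH animals (-0.09). No difference exceeded its SE in these 3 regions. SCN2A had 6687, 9794 and 12941 in HT animals, against 3641, 8746 and 12555 in OvH animals in hippocampus (0.28, SE 0.24). In occipital cortex SCN2A had 2114, 7126 and 10297 in HT animals, against 4503, 7089 and 10935 in OvH animals (-0.17). In prefrontal cortex it had 3155, 11151 and 19234 in HT animals, against 3023, 11987 and 17856 in OvH animals (-0.12). The lowest prefrontal value of SCN2A was again that of animal 32.

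SCN3A had 694, 1202 and 2056 in HT animals, against 501, 950.0 and 2017 in OvH animals in hippocampus (0.34). In occipital cortex SCN3A had 275, 444 and 665 in HT animals, against 171, 402 and 609.7 in OvH animals (0.24). Its prefrontal values were 907, 1152 and 1408 in HT animals, against 532, 1109.7 and 1429 in OvH animals (0.14). Its differences outside the amygdala were thus all positive and within about 1 SE. SCN8A had 808, 3009 and 6455 in HT animals, against 519, 2399 and 10350.3 in OvH animals in hippocampus (0.22, SE 0.64). In occipital cortex SCN8A had 727, 2583 and 6679 in HT animals, against 1132, 2144 and 5090.1 in OvH animals (0.26, SE 0.47). Prefrontal SCN8A stood at 992, 5505 and 6932 in HT animals, against 735, 6114 and 8853 in OvH animals (-0.33, SE 0.55). Its ranges within a group were wide and nested in all 3 regions. SCN9A, among the 2 smallest p in prefrontal cortex, had 196, 269 and 375 in HT animals, against 279, 305 and 388 in OvH animals there, with 5 of 7 HT animals below every OvH animal (log2 difference -0.31, SE 0.16, adjusted p = 1). SCN2B had 14446, 25667 and 30890.4 in HT animals, against 16059, 18927 and 30041 in OvH animals in hippocampus (0.14). In occipital cortex SCN2B had 13029, 24943 and 28749 in HT animals, against 16585, 26588 and 28146 in OvH animals (-0.05). The prefrontal values of SCN2B were 14755, 21298 and 27348 in HT animals, against 12320.5, 22027 and 25103 in OvH animals (0.11), and the groups overlapped in each region.

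Calcium channel pores likewise overlapped between the groups. CACNA1A had 2301, 2732 and 3352 in HT animals, against 1758, 2713 and 5700.4 in OvH animals in hippocampus (-0.09). In occipital cortex CACNA1A had 1549, 4359 and 6848 in HT animals, against 2773, 5507 and 7932 in OvH animals (-0.24). In prefrontal cortex it had 4189.8, 6173 and 7248 in HT animals, against 6018, 6200.3 and 8353 in OvH animals (-0.20). All 3 differences were negative with all libraries, and that in hippocampus was 0.20 without the libraries of animals 30 and 43. CACNA1B had 1544, 3309.7 and 4242 in HT animals, against 1605, 2343 and 4008 in OvH animals in hippocampus (0.09). In occipital cortex CACNA1B had 478, 1893 and 3431 in HT animals, against 1184, 1690.0 and 3488 in OvH animals (-0.27). Its prefrontal values were 1939.8, 3431 and 4441 in HT animals, against 2807, 3604 and 5077 in OvH animals (-0.32), with 3 of 7 HT animals below every OvH animal. No pore gene had an adjusted p below 0.999 in these regions. CACNA1C had 168, 215 and 278 in HT animals, against 148, 219.8 and 325 in OvH animals in hippocampus (-0.06). In occipital cortex CACNA1C had 108, 217 and 499 in HT animals, against 185, 273 and 336 in OvH animals (-0.17). Prefrontal CACNA1C stood at 241, 275 and 349 in HT animals, against 239, 275 and 401 in OvH animals (-0.04). The OvH range enclosed the HT range in hippocampus.

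CACNA1E had 1141, 2244 and 4491 in HT animals, against 826, 2163 and 3549 in OvH animals in hippocampus (0.35). In occipital cortex CACNA1E had 173, 817 and 1760.1 in HT animals, against 419, 672 and 1506 in OvH animals (-0.09). The prefrontal values of CACNA1E were 975, 2125 and 3499 in HT animals, against 997, 2984 and 3469.7 in OvH animals (-0.27). The sign differed between hippocampus and the cortical regions, each within its SE. CACNA1G had 549, 993 and 1417 in HT animals, against 596, 1108 and 3528 in OvH animals in hippocampus (-0.48, and 0.06 without the libraries of animals 30 and 43, which held the 2 highest OvH values). In occipital cortex CACNA1G had 1278, 3539 and 4931 in HT animals, against 2619, 4286 and 5618 in OvH animals (-0.29). In prefrontal cortex it had 2717, 3469 and 5673 in HT animals, against 2828, 3901 and 5008 in OvH animals (-0.06). Its average over the 3 regions, -0.28 (SE 0.19), had the second smallest p of the 28 and an adjusted p of 1, and it includes that hippocampal difference. CACNA1I had 3299.6, 3857 and 5416 in HT animals, against 2705, 3882 and 4631 in OvH animals in hippocampus (0.10). In occipital cortex CACNA1I had 2341, 3873 and 5878 in HT animals, against 2903, 5683 and 7279 in OvH animals, with 6 of 7 HT animals below the OvH median (log2 difference -0.33, SE 0.22, adjusted p = 0.999). Its prefrontal values were 3897, 4614 and 6273 in HT animals, against 3344, 5014 and 6178 in OvH animals (0.0050). CACNA1D and CACNA1F differed by -0.19 to 0.20 over the 3 regions.

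Among the auxiliary subunits, CACNB4 had 470.0, 857 and 1577 in HT animals, against 148, 547 and 4907 in OvH animals in hippocampus (0.27, SE 0.70). In occipital cortex CACNB4 had 929, 2231 and 3789.9 in HT animals, against 457, 1424 and 3055 in OvH animals (log2 difference 0.61, SE 0.40, adjusted p = 0.999), the smallest p of the 28 there. Prefrontal CACNB4 stood at 781, 2894 and 3599.7 in HT animals, against 514, 2907 and 4253 in OvH animals (-0.05). The groups overlapped widely. CACNA2D3 had 2962, 5187 and 5991 in HT animals, against 3184, 4796 and 8492 in OvH animals in hippocampus (-0.06). In occipital cortex CACNA2D3 had 4010.1, 5156 and 5815 in HT animals, against 3766, 4894 and 6550.1 in OvH animals (0.05). The prefrontal values of CACNA2D3 were 3605, 4026 and 4551 in HT animals, against 2869.9, 4272 and 4482 in OvH animals (0.07), and it was among the least variable genes of the set there. CACNG3 had 6090.4, 6943 and 10255 in HT animals, against 7102, 8672 and 12735 in OvH animals in hippocampus, with 5 of 7 HT animals below every OvH animal (log2 difference -0.29, SE 0.16, adjusted p = 1). In occipital cortex CACNG3 had 4479, 6044 and 7417 in HT animals, against 4461, 5835 and 8544 in OvH animals (-0.13). In prefrontal cortex it had 7537, 9178 and 12894 in HT animals, against 5811, 10087 and 11312 in OvH animals (0.10). Its low values in HT hippocampus were not matched in the cortical regions. CACNG8 had 379.6, 1085 and 1473 in HT animals, against 513, 775 and 1472 in OvH animals in hippocampus (0.21). In occipital cortex CACNG8 had 149, 386 and 534 in HT animals, against 224, 365 and 526 in OvH animals (-0.04). Its prefrontal values were 325, 537 and 1012 in HT animals, against 282, 628 and 924 in OvH animals (-0.13). CACNA2D2, CACNA2D4, CACNB2, CACNB3, CACNG4, CACNG6, CACNG7 and SCN3B differed by -0.33 to 0.48 over these regions.

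Whether the HT difference in amygdala departed from that in the other regions was tested within animals, as the amygdala value minus the mean of the other 3. None of 28 genes passed by limma, as was so for all 13520 genes with a matching level (0%), while 8 of 28 and 22.8% of all had an unadjusted p under 0.05. The median of the 28 was -0.23, and of all -0.0020. The nearest were SCN8A (log2 difference -0.84, SE 0.24, adjusted p = 0.0659) and SCN3A (log2 difference -0.79, SE 0.23, adjusted p = 0.0681), followed by CACNA1E (-0.59) and SCN2A (-0.72). Without animal 32, singled out after its values were seen, 5 of 28 passed, where 6.09% of all genes did. They were lower in amygdala: SCN3A (adjusted p = 0.0114), SCN8A (0.0256), SCN2A (0.029), CACNA1E (0.0256) and CACNB4 (0.0426). Without animal 30 or animal 39 there were 2, where 6.06% and 8.57% of all genes passed. With libraries scaled to equal totals 4 passed, SCN3A, SCN8A, SCN2B and CACNA1E, where 3.74% of all genes did.

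Between regions most of the 28 genes differed, within the limits of naming outside the amygdala. The occipital cortex was set apart by low SCN3B, CACNG6 and SCN9A, and the hippocampus by low CACNA1G and SCN1A. In the comparison of hippocampus with prefrontal cortex 16 of 28 genes passed, 2 higher and 14 lower in hippocampus, where 44.9% of all genes passed (21.4% higher, 23.6% lower). Against occipital cortex 18 passed, 9 higher and 9 lower in hippocampus, where 44.7% of all passed (24.9% higher, 19.8% lower). In occipital against prefrontal cortex 18 passed, 4 higher and 14 lower, where 51% of all passed (21.1% higher, 29.8% lower). In these region comparisons the shares of all genes were taken with no limit on the level, unlike the 28. With libraries scaled to equal totals the first of these gave 2 higher and 15 lower, and 2732 higher and 4614 lower over all genes against 3491 and 3855. Median differences of the 28 were -0.28, -0.03 and -0.41 in the 3 comparisons, against -0.01, 0.03 and -0.06 over all genes. The triplets that follow are the lowest, median and highest of 14 animals.

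**Figure D5:**
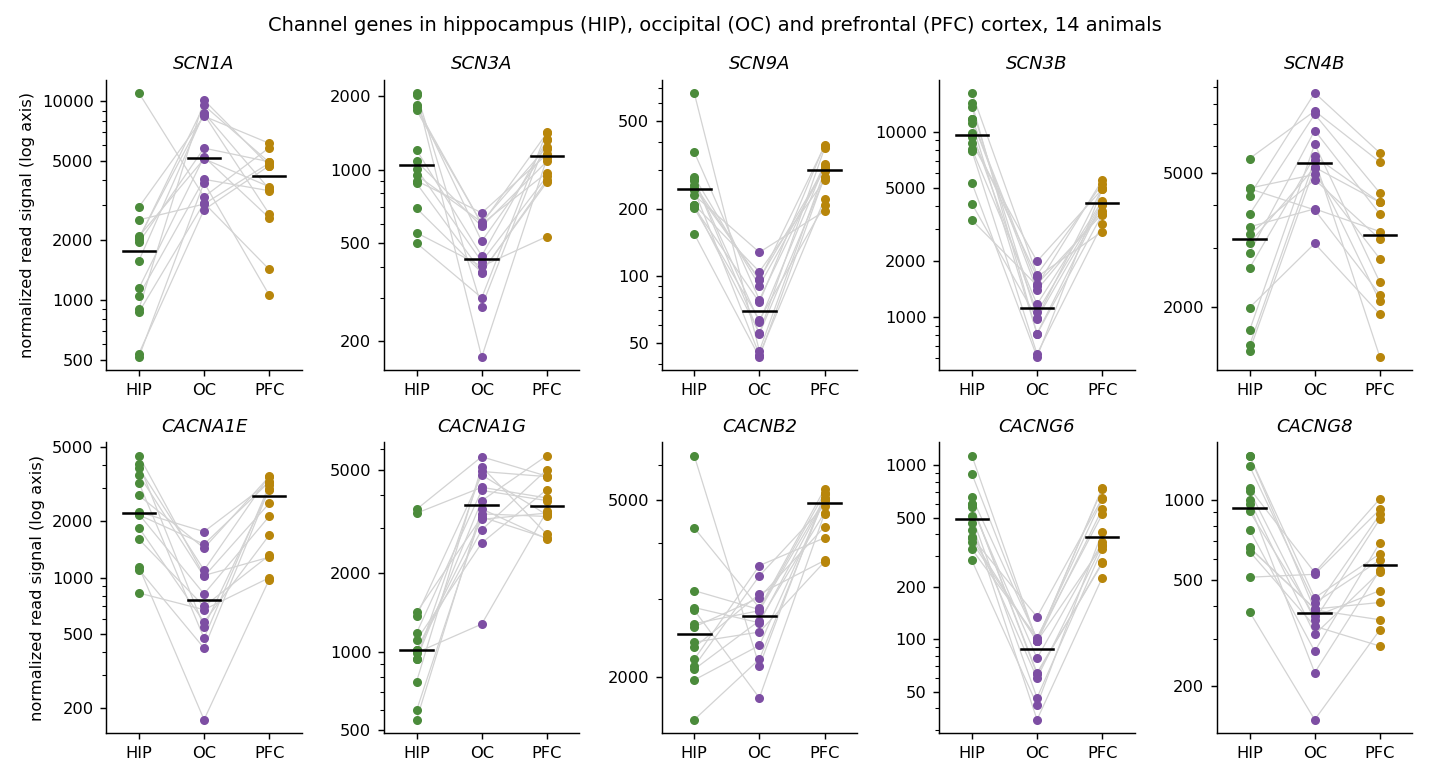
Normalized read signal on log axes of 10 channel genes in hippocampus (HIP), occipital cortex (OC) and prefrontal cortex (PFC), with 1 point per animal and region, grey lines joining the regions of an animal and bars at the median of 14. SCN3B, SCN9A and CACNG6 in occipital cortex lie below every hippocampus and prefrontal value, and CACNB2 in occipital cortex lies below every prefrontal value.

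Sodium channel alpha genes split in opposite ways. SCN1A had 515, 1762 and 11044 in hippocampus, 2846, 5195 and 10163 in occipital cortex and 1056, 4230.5 and 6156 in prefrontal cortex. It was lower in hippocampus than in either cortex in 13 of 14 animals (against occipital log2 difference -1.75, SE 0.29, adjusted p = 9.36e-05; against prefrontal log2 difference -1.17, SE 0.22, adjusted p = 3.32e-04). With the neuronal marker mean as a covariate the call against prefrontal cortex ended (-0.74, adjusted p = 0.0695). It was higher in occipital than in prefrontal cortex (log2 difference 0.58, SE 0.20, adjusted p = 0.0216), a call that ended without the block (adjusted p = 0.0607).

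SCN9A and SCN3A ran the other way, low in occipital cortex. SCN9A had 155, 246 and 665 in hippocampus, 43.1, 69.7 and 128 in occipital cortex and 196, 299 and 388 in prefrontal cortex. The occipital range overlapped neither of the others (hippocampus minus occipital log2 difference 1.85, SE 0.19, adjusted p = 4.51e-07; occipital minus prefrontal log2 difference -2.03, SE 0.15, adjusted p = 5.30e-09). SCN3A had 501, 1044 and 2056 in hippocampus, 171, 432 and 665 in occipital cortex and 532, 1131 and 1429 in prefrontal cortex. It was lower in occipital cortex than in each other region in 14 of 14 animals (hippocampus minus occipital log2 difference 1.38, SE 0.22, adjusted p = 4.76e-05; occipital minus prefrontal log2 difference -1.33, SE 0.16, adjusted p = 1.62e-06). SCN2A (-0.69, adjusted p = 6.26e-04) and SCN8A (-0.72, adjusted p = 0.0356) were lower in occipital than in prefrontal cortex. The call of SCN8A ended without the animal block (adjusted p = 0.115) and without any 1 of animals 30, 33, 34, 35, 36, 37 and 43. SCN8A was also lower in hippocampus than in prefrontal cortex (-0.65, adjusted p = 0.0419), a call that ended without the block (adjusted p = 0.247) and without any 1 of animals 31, 32, 33, 34, 36, 39, 41, 42 and 43. SCN2A passed as higher in hippocampus than in occipital cortex (0.45, adjusted p = 0.0275), a call that ended without the block (adjusted p = 0.0596) and without any 1 of animals 34, 36, 37 and 40.

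SCN3B had the largest hippocampal excess of any gene of the set. It had 3339, 9628 and 16226 in hippocampus, 609, 1116 and 2001 in occipital cortex and 2895, 4122 and 5483 in prefrontal cortex. The occipital range lay below both others (hippocampus minus occipital log2 difference 2.97, SE 0.19, adjusted p = 2.07e-09; occipital minus prefrontal log2 difference -1.88, SE 0.14, adjusted p = 3.45e-09), and hippocampus exceeded prefrontal cortex in 13 of 14 animals (log2 difference 1.09, SE 0.18, adjusted p = 1.45e-04). Animals 30 and 43 had the low values of 4090.1 and 3339 in hippocampus, and the other 12 had at least 5306. SCN4B was higher in occipital cortex, at 3084, 5332 and 8634, than in prefrontal cortex, at 1419, 3263 and 5728, in 14 of 14 animals (log2 difference 0.81, SE 0.11, adjusted p = 1.34e-05). Hippocampus, at 1482, 3188 and 5513, was below occipital cortex in 13 of 14 (log2 difference -0.88, SE 0.16, adjusted p = 1.96e-04). SCN2B did not pass in any of the 3 comparisons without a covariate.

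Among calcium channel pores, CACNA1G had 549, 1014 and 3528 in hippocampus, 1278, 3674 and 5618 in occipital cortex and 2717, 3640.0 and 5673 in prefrontal cortex. It was lowest in hippocampus in 14 of 14 animals (against prefrontal log2 difference -1.71, SE 0.18, adjusted p = 3.09e-06; against occipital log2 difference -1.64, SE 0.19, adjusted p = 1.94e-06). Without animals 30 and 43 its highest hippocampus value was 1417, below every prefrontal value. CACNA1A had 1758, 2722 and 5700.4 in hippocampus, 1549, 4797 and 7932 in occipital cortex and 4189.8, 6187 and 8353 in prefrontal cortex. Hippocampus was below prefrontal cortex in 14 of 14 animals (log2 difference -1.10, SE 0.12, adjusted p = 5.01e-06), and the lower occipital level (log2 difference -0.40, SE 0.15, adjusted p = 0.0329) lost its call without the animal block (adjusted p = 0.0656) and without any 1 of animals 30, 33, 34, 37, 40 and 41.

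CACNA1E had 826, 2213 and 4491 in hippocampus, 173, 759 and 1760.1 in occipital cortex and 975, 2726 and 3499 in prefrontal cortex. It was lowest in occipital cortex in 14 of 14 animals (hippocampus minus occipital log2 difference 1.56, SE 0.21, adjusted p = 7.55e-06; occipital minus prefrontal log2 difference -1.53, SE 0.19, adjusted p = 2.41e-06). CACNA1B was low there too (hippocampus minus occipital 0.66; occipital minus prefrontal -0.91). The L-type genes CACNA1C (-0.32), CACNA1D (-0.37) and CACNA1F (-0.61) were lower in hippocampus than in prefrontal cortex, as was CACNA1I (-0.32), and the calls ended without any 1 of animals 30, 32, 34, 35, 38, 40, 41 and 42 for CACNA1C and 32, 33 and 34 for CACNA1D. With the neuronal covariate the calls of CACNA1C (adjusted p = 0.190), CACNA1D (0.417) and CACNA1I (-0.07, adjusted p = 0.687) ended. CACNA1C was at an adjusted p of 0.0835 without the hippocampus libraries of animals 30 and 43, and CACNA1D at 0.0903 and CACNA1I at 0.0514 without those of animals 33 and 40. CACNA1D was also lower in occipital than in prefrontal cortex (-0.53), and CACNA1F lower in hippocampus than in occipital cortex (-0.84).

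Among the auxiliary calcium channel subunits, CACNA2D2 was lower in hippocampus, at 161, 472 and 1239.5, than in prefrontal cortex, at 751, 1136 and 1486, in 14 of 14 animals (log2 difference -1.21, SE 0.18, adjusted p = 3.56e-05). CACNB4, whose call against occipital cortex (-1.16) ended without any 1 of animals 31, 32, 33, 34, 36, 38, 39, 40, 41 and 42, was lower in hippocampus, at 148, 786 and 4907, than in prefrontal cortex, at 514, 2901 and 4253, in 13 of 14 (log2 difference -1.62, SE 0.28, adjusted p = 1.62e-04). The exception was animal 30. CACNB2 was lower in occipital cortex, at 1793, 2746 and 3559, than in prefrontal cortex, at 3629, 4932 and 5289.7, with no overlap (occipital minus prefrontal log2 difference -0.81, SE 0.10, adjusted p = 1.78e-06). CACNB3, between 8621 and 16916 over the 3 regions, did not pass in any comparison. CACNA2D3 was higher in occipital than in prefrontal cortex (0.32, adjusted p = 0.00817) and CACNA2D4 lower (-0.42, adjusted p = 0.0264, and 0.0576 without animal 31).

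Of the CACNG genes, CACNG6 had 283, 488 and 1134 in hippocampus, 34.4, 87.4 and 134 in occipital cortex and 226, 386 and 739 in prefrontal cortex. Again the occipital range overlapped neither other range (hippocampus minus occipital log2 difference 2.74, SE 0.18, adjusted p = 3.37e-09; occipital minus prefrontal log2 difference -2.50, SE 0.12, adjusted p = 8.06e-12). CACNG8 had its highest median in hippocampus and its lowest in occipital cortex, with 379.6, 938 and 1473 in hippocampus, 149, 375 and 534 in occipital cortex and 282, 570.1 and 1012 in prefrontal cortex. It passed in all 3 comparisons (hippocampus minus occipital log2 difference 1.32, SE 0.15, adjusted p = 1.17e-06; hippocampus minus prefrontal log2 difference 0.62, SE 0.18, adjusted p = 0.00955; occipital minus prefrontal log2 difference -0.70, SE 0.14, adjusted p = 3.02e-04). CACNG3 (-0.56, adjusted p = 8.06e-04) was lower in occipital than in prefrontal cortex, and CACNG7 lower in hippocampus than in prefrontal (-0.41) and occipital cortex (-0.54). CACNG4 did not pass.

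The hippocampus libraries of animals 30 and 43 exceeded all 12 others in 8 of the 28 genes, against 11.4% of all genes tested. They included SCN1A, CACNA1A, CACNA1G, CACNA2D2, CACNB2, CACNB4 and CACNG7, each of which was also lower in hippocampus than in prefrontal cortex. Without those libraries the differences of hippocampus from prefrontal cortex were -1.94 for CACNA1G, -1.35 for SCN1A, -1.89 for CACNB4 and 1.33 for SCN3B. Then 17 genes passed in hippocampus against prefrontal cortex and 19 against occipital cortex, where 55.3% and 52.9% of all genes did. The hippocampus libraries of HT animal 40 and OvH animal 33 held 1465981 and 1327777 in summed signal of 3 choroid plexus markers, against at most 49744 in the other 12. Without this pair 14 genes passed against prefrontal cortex and 18 against occipital cortex, where 39.8% and 44.9% of all genes did, an alternative chosen after the data were seen.

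With the mean of the neuronal markers as a covariate beside the animal block, 13 of 28 genes passed in hippocampus against prefrontal cortex, 17 against occipital cortex and 18 in occipital against prefrontal cortex, where 28%, 37.9% and 54.7% of all genes did. Against occipital cortex the hippocampal calls of CACNA1A (-0.38, adjusted p = 0.140), CACNB4 (-0.30, adjusted p = 0.666) and CACNG7 (-0.35, adjusted p = 0.0752) ended. Both calls of SCN8A ended as well, at an adjusted p of 0.556 in hippocampus against prefrontal cortex and 0.0572 in occipital against prefrontal cortex. SCN2B and CACNA2D3 passed as higher in hippocampus than in prefrontal cortex in this fit (0.48 and 0.61). The part of neuronal content in these differences was not tested.

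Of 33 channel partners tested, 15 passed in hippocampus against prefrontal cortex (6 higher, 9 lower), where 44.9% of all genes did, which is near the partners' share. Against occipital cortex 19 passed (14 higher, 5 lower), where 44.7% did, and in occipital against prefrontal cortex 21 (6 higher, 15 lower), where 51% did. Among the largest were REM2, a calcium channel inhibitor, higher in hippocampus than in prefrontal cortex by 1.70, and RIMS2, an active zone scaffold, with a difference of -1.67. UNC80, of the sodium leak channel complex (-1.46), and PCLO, an active zone organizer (-1.28), were lower in occipital than in prefrontal cortex.

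Channel genes differed in how much they varied between animals of a group. SCN8A had the widest spread of the set in amygdala, occipital cortex and prefrontal cortex, with SDs within groups on the log2 scale of 1.15, 1.03 and 1.17, and the second widest in hippocampus (1.37) after CACNB4 (1.48). Over all genes tested the median SD was 0.40 in amygdala and in occipital cortex, 0.45 in hippocampus and 0.33 in prefrontal cortex. CACNB3 lay between 0.19 and 0.29 over the 4 regions, and CACNB2 between 0.18 and 0.51. CACNB2 and CACNB3 were among the 5 steadiest in both cortices. The low ends came from few libraries. Animal 32 held the lowest value of 12 of 34 genes in amygdala, 9 of 28 in hippocampus and 10 of 28 in prefrontal cortex, and HT animal 40 held 15 of 28 in occipital cortex, against 20.2%, 11.1%, 19.5% and 26.6% of all genes tested.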

How the data were processed

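RNA of 4 regions from 14 animals was made into 56 libraries with a stranded mRNA kit, per the labels. Reads were handled with Trimmomatic, STAR 2.7.3a and edgeR 3.28.0 on the Mmul_10 build, per the submitters' processing notes. How reads were counted, with which strand setting, and how reads of similar genes were shared are not given in the sources used here. The deposited values are a signal from the authors, whole reads times 1 factor per library, with the same upper quartile of 2819 in every library. In all libraries 100% of values were whole multiples, within 0.01, of what 1 read is worth, so read counts were recovered and served as an alternative. Symbols were matched to 15123 of 17807 identifiers. Identifiers outside the amygdala were checked by level, and 75.9% lay within 2.

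Members, gene lists and tests were chosen with earlier results of these data known. Each HT effect was fitted on log2(value + 1) by limma (3.58.1, R 4.3.3), whose variance prior followed the mean level, for genes with a mean of at least 10, two-sided, with Benjamini-Hochberg adjustment over all genes tested and a threshold of 0.05. Region comparisons added the animal as a block, since the labels give each library its animal. Same-animal libraries deviated together, with mean correlations of 0.287 to 0.494 between regions and 0.184 as the consensus over all regions. Alternatives were another pseudocount (10), other filters (none, or a mean of at least 100), equal totals, edgeR 4.0.16, DESeq2 1.42.0, no such trend, marker covariates, the block, a level within 1 and leaving out each animal. The fit was also run on simulated counts, with the same dispersion for every gene and no outlying library. That run cannot show how the fit handles a library such as the amygdala library of OvH animal 32. The closest libraries of a group differed by 35.6 times the sampling noise (chi-square per degree of freedom), so none was counted as a repeat. Of the 34 channel genes, 2 are not reported here by name and stay in the counts. Values are named for the other 32 at least once, in full for genes chosen by role, for up to 6 passing genes with the widest difference per comparison, and for the 2 with the smallest p per HT comparison. Tables were made with pandas 2.3.3 and figures with matplotlib 3.10.9.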

Additional observations from a re-analysis of the deposited data

Results flagged for a closer look

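Single libraries far from the rest of their group were looked for in 236 combinations of a channel gene with a group of 7 animals, and 26 stood apart by Dixon's test at its 95% critical value. For independent normal values the test flags about 1 in 20, but genes share libraries here. The share of flags over all genes is not given, so an excess in channel genes cannot be read from this count. The flags gathered in few libraries. Of all genes tested, the amygdala library of animal 32 held the lowest value for 20.2% and the highest for 20.5%. The occipital library of animal 40 held the lowest for 26.6% and the highest for 24.7%. The amygdala of OvH animal 32 was far below the other OvH animals in 9 genes: SCN1A at 471.7, SCN2A at 1493, SCN3A at 482.5, SCN8A at 265.5, CACNA1B at 706.3, CACNA1C at 281.7, CACNA1E at 512.2, CACNA2D1 at 485.2 and CACNB4 at 308.6. The same animal was far below the others in prefrontal cortex for SCN1A at 1056, SCN2A at 3023, SCN8A at 734.7 and CACNB4 at 513.6, but held none of the far values in occipital cortex.

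HT animal 40 was far below the other HT animals in occipital cortex in 6 genes, with CACNA1A at 1549, CACNA1G at 1278, CACNA2D2 at 346.7, CACNA2D4 at 36.31, CACNG8 at 148.7 and SCN2A at 2114. It was also lowest in prefrontal cortex for CACNG4 at 285.7 and CACNG7 at 1292, and in amygdala for CACNA2D1 at 851.5. Far above their groups were CACNA1I in the amygdala of HT animal 41 at 2407, CACNA1A in the prefrontal cortex of OvH animal 33 at 8353, CACNA1F in the hippocampus of OvH animal 43 at 1335 and SCN9A in the hippocampus of OvH animal 30 at 665.4. The causes were not tested.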

How the results depend on the processing

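With all animals 2 of 34 channel genes passed in amygdala. The count was 4 by DESeq2 (10.9% of all genes), 0 without the intensity trend (6% of all, with 4 channel genes and 20.9% of all at an unadjusted p under 0.05), 0 with the myelin, neuronal or ribosomal protein covariate (2.54%, 0% and 0% of all), and between 0 and 8 when 1 animal was left out (3.4% to 14.6% of all), the 8 without animal 32. It stayed at 2 with the other pseudocount, both other filters, equal totals, edgeR and the replicate block, where SCN4B no longer passed (adjusted p = 0.0540) and CACNA2D1 did. With the ribosomal protein covariate the differences of SCN1A, SCN2A and SCN3A became 0.21, 0.14 and 0.044, and the cause was not tested. In the other regions and their average the count was 0 of 28 under every alternative run, the block included. For amygdala minus the other regions it was 4 with equal totals (3.74% of all genes) and 0 to 5 when 1 animal was left out (0% to 8.57% of all), against 0. A level within 1 in place of 2 leaves 17 genes. Of these, 7 passed in hippocampus against prefrontal cortex, 10 in hippocampus against occipital cortex and 12 in occipital against prefrontal cortex. Of all genes, with no limit on the level, 44.9%, 44.7% and 51% passed. With all 28 genes, leaving out 1 animal gave 13 to 17, 16 to 18 and 16 to 20. Of all genes, 40.3% to 50.4%, 40.7% to 48.8% and 47.2% to 52.6% then passed. Without the replicate block the counts of the 28 were 16, 17 and 15 (35.4%, 41.3% and 44% of all genes). Over 69 single-gene results, 1505 alternatives kept direction and call in 1384, lost the call in 102, gained it in 16 and turned the sign in 3. Groups of 7 animals and 34.6 to 93.3 M (mega) reads limit what could be seen, most of all for genes with few reads such as CACNG5.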
